A study of Mus musculus with 272 samples.

Results

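Hmgcs1, Mvd, Idi1, Fdps, Sqle, Stard4, Insig1 and Srebf2 are 8 mouse genes of cholesterol synthesis, sterol transport and their control, followed here from the oocyte to the blastocyst. They are the listed sterol pathway genes found in the deposited table, 8 of its 15854 gene symbols, and they were proposed with results of these data in view. The change from the 4-cell to the 8-cell stage was among those results, so for that step values are given without a test. Other tests that use 4-cell or 8-cell samples share values with that step, so their calls are not independent of the choice of genes. The study collected mouse oocytes at the germinal vesicle (GV) and metaphase II (MII) stages, zygotes, 2-cell, 4-cell and 8-cell embryos, morulae and blastocysts, with no genetic or drug difference between groups in the labels. Each stage has 4 transcriptome libraries from pools of 20 and 3 sucrose gradients from about 100 oocytes or embryos each, cut into 10 fractions that were sequenced one by one, which gave 32 transcriptome and 240 fraction libraries. All gradient lysates contained cycloheximide, which halts ribosomes on the transcript. Strain, age, collection and culture are not stated in the labels.

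Cells make cholesterol from acetyl-CoA through the mevalonate pathway, or take it up from lipoproteins. When membrane sterol is low, SCAP escorts the SREBP2 precursor from the endoplasmic reticulum to the Golgi, where it is cut to a transcription factor for synthesis and uptake genes. When sterol is high, INSIG proteins hold the complex back. In the ovary, mouse oocytes are known to rely on the surrounding cumulus cells for much of their cholesterol.

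Levels are in CPM, counts per M reads of the library, with no scaling for transcript length, so levels are compared between stages for 1 gene and never between genes. Transcriptome libraries held 11.2 to 24.3 M reads, so that 1 read stood for 0.0396 to 0.0846 CPM. Fraction libraries held 0.0102 to 43.2 M reads, and of the 15 under 1 M reads 14 were fraction 1. Stage markers followed the labels in the transcriptomes. The 6 oocyte markers summed to between 15823 and 18641 CPM in GV oocytes and to between 6.10 and 11.2 CPM in blastocysts, the 4 2-cell markers to between 1628 and 2307 CPM in 2-cell embryos, and the 6 blastocyst lineage markers to between 2259 and 2864 CPM in blastocysts. Of 11 cumulus and granulosa cell markers 4 were in the table. They summed to between 40.9 and 44.8 CPM in GV oocytes, 60.1 and 69.7 CPM in MII oocytes, 48.1 and 60.2 CPM in zygotes and 7.76 and 14.0 CPM in 2-cell embryos, and to at most 3.92 CPM later. Cyp19a1 made up most of the sum up to the 2-cell stage, with means of 38.0 CPM in GV oocytes and 62.7 CPM in MII oocytes, where Inha went from 1.40 to 0.406 CPM, Fshr from 2.45 to 0.201 CPM and Star from 0.805 to 0.390 CPM. Inha was at 0 in zygotes, 2-cell and 4-cell embryos, and Fshr at 0 in 4-cell and 8-cell embryos and blastocysts. The part of such cells in the levels below was not tested. In fraction libraries the median sum of the oocyte markers was 14582 CPM in GV oocytes and 13.1 CPM in blastocysts. It was 596 CPM in 4-cell and 283 CPM in 8-cell embryos, where transcriptomes held 42.5 to 52.3 and 36.6 to 45.5 CPM. The 2-cell markers had a median sum of 329 CPM in 2-cell and 0.203 CPM in 4-cell fractions, with up to 671 CPM in the latter.

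Promoters are shown for the genes that fell together at the 2-cell to 4-cell step and have a RefSeq window, Hmgcs1, Idi1 and Insig1. RefSeq windows of 300 bases, from 250 before to 50 after the annotated start, were matched for 5 of the 8 genes in build GRCm38.p6. Hmgcs1 lies at chr13:119690101-119690400 and Idi1 at chr13:8885356-8885655, both on the plus strand, and Insig1 at chr5:28071162-28071461 on the plus strand. Capitals mark matches on either strand to TCACNCCAC (a sterol regulatory element core, the kind of site SREBPs bind), CCAAT (the NF-Y motif) and GGGCGG (the Sp1 motif), with no overlap between them.
Hmgcs1: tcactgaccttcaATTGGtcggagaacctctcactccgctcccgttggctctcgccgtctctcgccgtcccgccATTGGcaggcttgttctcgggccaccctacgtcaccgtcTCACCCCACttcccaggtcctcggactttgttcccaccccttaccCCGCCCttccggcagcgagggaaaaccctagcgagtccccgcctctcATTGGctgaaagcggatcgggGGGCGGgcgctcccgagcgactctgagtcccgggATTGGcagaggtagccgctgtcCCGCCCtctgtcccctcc
Idi1: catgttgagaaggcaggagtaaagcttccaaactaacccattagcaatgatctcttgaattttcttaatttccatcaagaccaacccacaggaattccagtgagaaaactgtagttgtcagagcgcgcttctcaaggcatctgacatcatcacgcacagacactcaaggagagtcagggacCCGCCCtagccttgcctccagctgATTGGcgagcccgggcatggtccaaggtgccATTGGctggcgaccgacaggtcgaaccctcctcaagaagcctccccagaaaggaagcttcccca
Insig1: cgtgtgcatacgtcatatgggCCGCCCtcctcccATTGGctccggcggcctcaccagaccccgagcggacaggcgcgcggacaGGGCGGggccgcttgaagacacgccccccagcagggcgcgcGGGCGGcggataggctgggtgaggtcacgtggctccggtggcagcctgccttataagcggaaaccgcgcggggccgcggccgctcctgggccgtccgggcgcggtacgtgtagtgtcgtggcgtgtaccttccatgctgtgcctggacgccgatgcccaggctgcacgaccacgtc
The sterol element core was matched in 1 of the 5 windows, that of Hmgcs1, where it starts 137 bases before the gene start, and in 1.24% of 32851 RefSeq promoter windows. CCAAT was matched in all 5 windows against 37.4% of all windows, with 4 matches in Hmgcs1, 2 in Idi1 and 1 in Insig1. GGGCGG was matched in all 5 against 35.7%, with 3, 1 and 3 matches in the same order. A match describes the letters of these windows and is not a measured site.

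**Figure D1:**
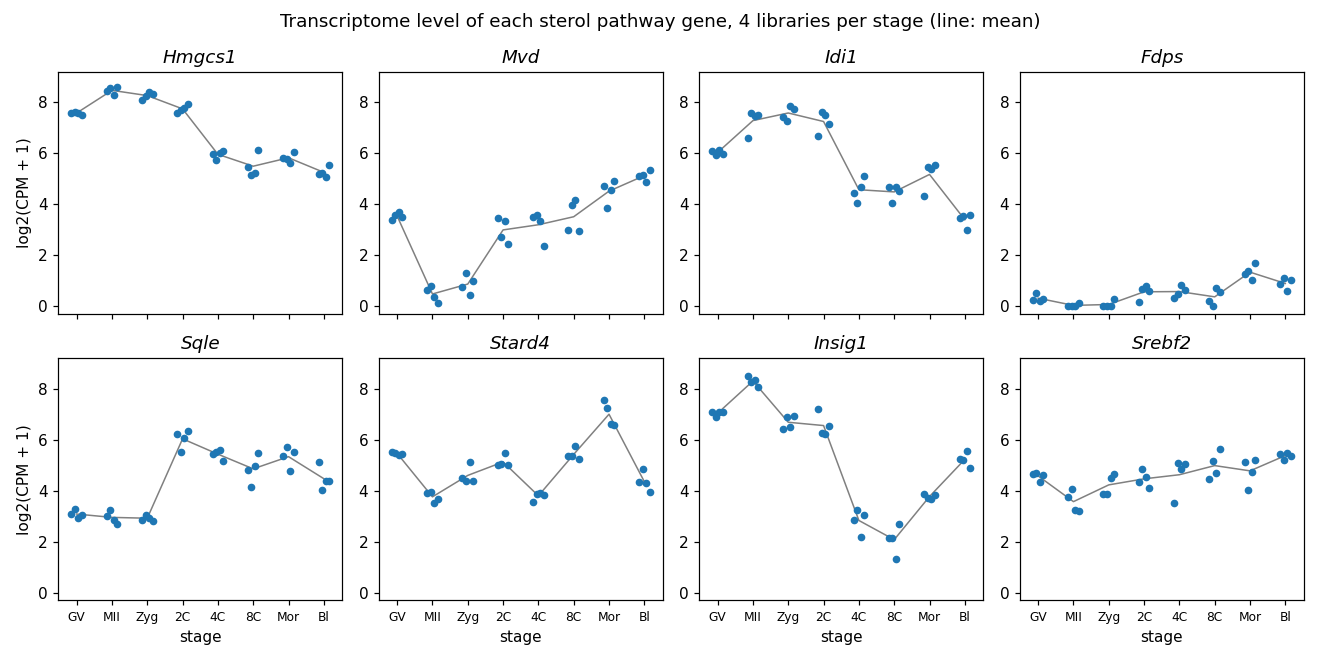
Transcriptome level of each gene on a log2(CPM + 1) axis by stage, 1 point per library (4 per stage) with a line through the stage means. Hmgcs1, Idi1 and Insig1 sit high up to the 2-cell stage, Sqle from the 2-cell stage on, and Stard4 peaks in morulae.

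Of the early enzymes, Hmgcs1 and Idi1 were high in oocytes and fell after the 2-cell stage, while Mvd and Fdps did not follow them. Hmgcs1, which makes HMG-CoA at the entry of the pathway, stood at 192, 198, 191 and 183 CPM in GV oocytes and at 344, 380.0, 313 and 387 CPM in MII oocytes. Its 4 zygote libraries held 275, 303, 336 and 319 CPM, and its 2-cell libraries 189.7, 205, 221 and 244 CPM. In 4-cell embryos it was at 62.8, 51.9, 64.5 and 67.9 CPM, below every 2-cell library. From there to the blastocyst all of its libraries lay between 32.7 and 69.8 CPM. Its stage means ran from 356 ± 34.4 CPM (SD, n = 4) in MII oocytes to 37.5 ± 5.60 CPM in blastocysts, a 9.49-fold range. In that order MII overlapped the zygote and the 2-cell stage overlapped GV, while the last 4 stages overlapped their neighbours.

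Mvd, the decarboxylase that turns mevalonate diphosphate into isopentenyl diphosphate, took the opposite course. It held 9.60, 11.0, 11.9 and 10.2 CPM in GV oocytes and 0.570, 0.725, 0.281 and 0.106 CPM in MII oocytes, which is a handful of reads in each library. It was again at 9.95, 5.67, 9.31 and 4.42 CPM in 2-cell embryos. Its highest level was in blastocysts, with 33.9, 34.4, 28.7 and 39.8 CPM, which overlapped the morula range. Mean levels ran from 0.420 ± 0.279 CPM in MII oocytes to 34.2 ± 4.56 CPM in blastocysts (SD, n = 4 each).

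Idi1, the isomerase of isopentenyl diphosphate, followed Hmgcs1. It stood at 67.8, 60.7, 69.4 and 61.6 CPM in GV oocytes, and in MII oocytes at 95.4, 191, 174 and 183 CPM, with the first library well under the other 3. It held 103, 198, 181 and 143 CPM in 2-cell embryos and 20.7, 15.6, 24.6 and 34.1 CPM in 4-cell embryos, with no overlap. Blastocysts were lowest, at 9.94, 10.7, 6.96 and 11.1 CPM, again with no overlap with any other stage. Across the 8 stage means Idi1 and Hmgcs1 had a Pearson r of 0.957, as a description of points that share their libraries. In the GRCm38 GENCODE M21 annotation 4 other genes share at least 90% identity over at least 300 bases with Idi1, 3 of them pseudogenes and none in the table, so reads of Idi1 are uncertain. For Hmgcs1 the same search found 1 other gene, the antisense gene Gm48342, 100% identical over 462 bases. Its part in the reads of Hmgcs1 was not tested.

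Fdps, the farnesyl diphosphate synthase, was nearly absent from the transcriptomes as counted. Its highest transcriptome library was a morula at 2.22 CPM, and the other 3 morula libraries held 1.42, 1.59 and 1.05 CPM. In MII oocytes it was at 0, 0, 0 and 0.106 CPM. The annotation holds 6 other genes with at least 90% identity to it, 5 of them pseudogenes, and 3 of the 6 are in the table. One of these, Gm3571, a processed pseudogene 98.9% identical over 1062 bases, held 33.7 ± 9.93 CPM (SD, n = 4) in morulae where Fdps held 1.57 ± 0.491 CPM. Fdps and its 3 listed copies summed to 5.63 CPM in GV oocytes, 0.467 CPM in zygotes, 11.9 CPM in 4-cell embryos, 38.1 ± 11.3 CPM in morulae and 15.1 CPM in blastocysts. How the counting split reads among these copies is not given in the sources used here, so the level of Fdps itself is uncertain. Single fraction libraries of the gradients held more of it. The highest was fraction 8 of 2-cell gradient C, at 89.1 CPM from 1548 reads, where gradients A and B held 0 and 0.123 CPM. Fraction 5 of 2-cell gradient B held 52.0 CPM and fraction 8 of 4-cell gradient B 48.1 CPM, so these levels did not repeat across the 3 gradients at the 2-cell stage.

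Sqle, the squalene epoxidase and a control point of the later pathway, was present at a lower level in oocytes and zygotes and rose in 2-cell embryos. It held 7.56, 8.66, 6.51 and 7.33 CPM in GV oocytes and 6.21, 7.30, 6.71 and 6.11 CPM in zygotes. In 2-cell embryos it stood at 73.6, 44.8, 66.2 and 79.8 CPM, above every earlier library. All later libraries lay between 15.5 and 51.0 CPM, still above all oocyte and zygote libraries. The 3 stages before the 2-cell embryo overlapped one another.

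Stard4, a soluble protein that carries cholesterol between membranes, had its peak in morulae. It held 45.4, 43.7, 41.3 and 42.4 CPM in GV oocytes and 14.0, 14.4, 10.4 and 11.8 CPM in MII oocytes. It was at 10.9, 13.8, 13.9 and 13.4 CPM in 4-cell embryos and at 188, 153, 95.9 and 94.9 CPM in morulae. The morula libraries fall into a higher and a lower pair, and all 4 lie above every library of the other stages. In blastocysts it was back at 19.0, 27.8, 18.9 and 14.3 CPM.

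Insig1, the retention protein of the SREBP complex and itself an SREBP target, had the widest range of the 8, 91.2-fold between stage means. It stood at 359, 310.4, 327 and 271 CPM in MII oocytes, above all other stages. In zygotes it held 83.9, 118, 90.1 and 121 CPM and in 2-cell embryos 146, 76.1, 74.5 and 90.8 CPM. In 4-cell embryos it was at 6.29, 8.43, 3.54 and 7.24 CPM and in 8-cell embryos at 3.43, 3.45, 1.47 and 5.54 CPM, with overlap between these stages and none with any other. It returned to 13.7, 12.2, 11.6 and 13.2 CPM in morulae and 37.3, 36.3, 46.2 and 28.4 CPM in blastocysts.

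Srebf2, which encodes SREBP2, moved least, with a 3.62-fold range of stage means. It stood at 24.5, 24.7, 19.2 and 23.9 CPM in GV oocytes and at 12.7, 15.6, 8.49 and 8.29 CPM in MII oocytes. In blastocysts it held 42.7, 35.8, 44.0 and 40.3 CPM. Every pair of neighbours in its order of stage means overlapped. Over the 8 stage means its r with Hmgcs1 was -0.873 and with Mvd 0.911. Of the 28 pairs among the 8 genes 13 had r above 0, with a median of -0.182, so the 8 genes did not share 1 profile.

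The next comparison asked which genes changed from each stage to the next in the transcriptome. Changes are differences of log2(CPM + 1), which understate the change of low genes, and a gene was called at a limma adjusted p under 0.05 over all 14642 genes tested and a change of at least 1. All 8 genes passed the filter on low values. Fdps did so only through morula and blastocyst libraries, where it stood highest, and the counts and medians of the 8 include it. Consecutive steps share the libraries of the stage between them, and each step is read on its own. All calls at the 2-cell to 4-cell and 8-cell to morula steps, those of Stard4 and Insig1 among them, thus share libraries with the step known when the genes were chosen. The labels do not say whether pools came from separate collections, so p-values measure the spread between these samples. In whole pools, fewer cells of a type and less RNA per cell cannot be told apart, and a CPM change is relative to the rest of the library. Transcriptome libraries were made from polyA RNA, so these changes are changes in polyA RNA. The part of polyA tail length in them was not tested. Quantile normalization moved the median change of all genes by 0.27 at GV to MII, -0.45 at zygote to 2-cell, 0.20 at 2-cell to 4-cell, 0.11 at 4-cell to 8-cell and -0.16 at morula to blastocyst. The share of called genes that were higher then went from 26.4% to 55.6%, from 74.3% to 46.4%, from 49.2% to 54.1%, from 17.4% to 49.8% and from 70.2% to 50.8% in that order, and from 68.9% to 52.0% at 8-cell to morula. By edgeR it was 41.5% at GV to MII and 49.8% at morula to blastocyst. No called change of the 8 genes in transcriptomes turned its direction under either.

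From GV to MII, 2 of the 8 genes rose and 3 fell, against 9.11% of all genes called higher and 25.3% called lower. Insig1 rose by 1.26 (SE 0.23, limma adjusted p 1.24e-05) and Idi1 by 1.25 (SE 0.25, adjusted p 4.95e-05). Mvd fell by 3.06 (SE 0.29, adjusted p 1.98e-11) and Stard4 by 1.70 (SE 0.21, adjusted p 6.29e-09). Srebf2 fell by 1.01 (SE 0.29, adjusted p 0.00296), just past the threshold on size. Hmgcs1 had a change of 0.89 (SE 0.16, adjusted p 6.94e-06), short of the size needed for a call. For Srebf2 the change was -0.35 (adjusted p 0.296) after quantile normalization and -0.73 by edgeR on recovered reads, and the call was lost under 7 of 14 alternatives.

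From MII to the zygote only Insig1 of the 8 was called, with a fall of 1.62 (SE 0.23, limma adjusted p 9.87e-07), against 4.48% of all genes called lower and 5.79% higher. From the zygote to the 2-cell stage, the step that holds the main wave of embryonic genome activation in the mouse, 2 of 8 rose and none fell, against 25.2% of all genes higher and 8.71% lower. They were Sqle, with a rise of 3.12 (SE 0.23, adjusted p 6.54e-14), and Mvd, with a rise of 2.12 (SE 0.29, adjusted p 7.80e-08). The median change of the 8 was 0.37, and that of all genes was also 0.37.

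From the 2-cell to the 4-cell stage 4 of 8 fell and none rose, against 32.9% of all genes lower and 31.8% higher. Most genes moved at this step, so the count is not particular to these genes. Insig1 fell by 3.72 (SE 0.23, limma adjusted p 6.21e-17), Idi1 by 2.68 (SE 0.25, adjusted p 4.58e-12), Hmgcs1 by 1.78 (SE 0.16, adjusted p 8.94e-13) and Stard4 by 1.33 (SE 0.21, adjusted p 3.91e-07). The median change of the 8 was -0.96 and that of all genes 0.02. Mvd, Fdps, Sqle and Srebf2 were not called, with changes between -0.60 and 0.20.

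From the 4-cell to the 8-cell stage the change of Stard4 was 1.62, from 13.0 ± 1.42 to 42.3 ± 6.79 CPM (SD, n = 4), with no overlap. The other 7 genes had changes between -0.75, for Insig1, and 0.36, for Srebf2. The percent called over all genes at this step was 0.451% higher and 2.14% lower, and since the step was known when the genes were chosen nothing is read from it.

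From the 8-cell stage to the morula 3 of 8 rose and none fell, against 8.18% of all genes higher and 3.7% lower. Insig1 rose by 1.69 (SE 0.23, limma adjusted p 7.28e-07), Stard4 by 1.58 (SE 0.21, adjusted p 3.85e-07) and Mvd by 1.00 (SE 0.29, adjusted p 0.00702). Fdps, at 0.97, and Idi1, at 0.69, were not called, and Fdps passed the filter through the morula libraries compared here. The median change of the 8 was 0.83 and that of all genes 0.07. The Mvd call was lost under 7 of 14 alternatives, where its change ran from 0.81 to 1.22 over all of them.

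From the morula to the blastocyst 2 of 8 fell and 1 rose, against 7.97% of all genes lower and 18.8% higher. Stard4 fell by 2.65 (SE 0.21, limma adjusted p 7.06e-13) and Idi1 by 1.78 (SE 0.25, adjusted p 2.62e-07), while Insig1 rose by 1.46 (SE 0.23, adjusted p 2.04e-06). Hmgcs1 and Sqle had changes of -0.57 and -0.86, with adjusted p 0.00231 and 0.00218, and were short of the size for a call.

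**Figure D2:**
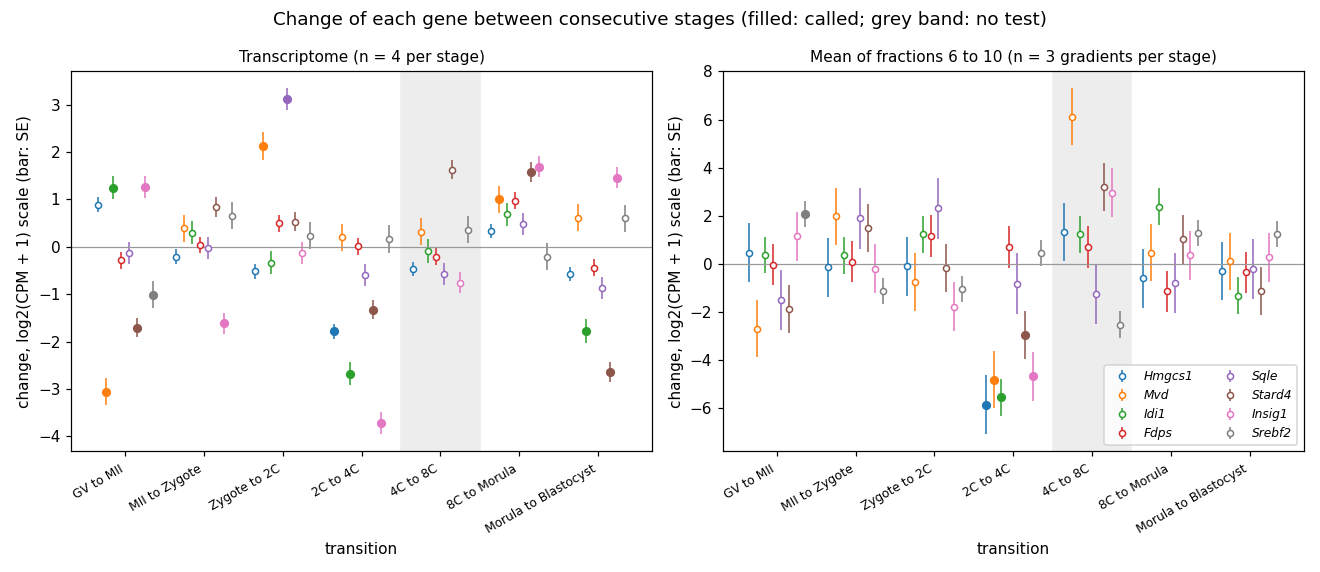
Change of each gene between consecutive stages on the log2(CPM + 1) scale with its standard error, in transcriptomes (left, 4 libraries per stage) and in the mean of fractions 6 to 10 (right, 3 gradients per stage), where filled points were called and the grey band marks the step without a test. The 2-cell to 4-cell step holds 4 called falls on the left and 5 on the right.

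The other genes of the pathway came from a list of 16 further synthesis enzymes, all of them in the table, which was drawn up with earlier results known. At the 8-cell to morula step 8 of the 16 rose and none fell, with a median change of 0.98, against 8.18% of all genes higher and 3.7% lower. The largest were Nsdhl, a sterol dehydrogenase, at 1.63, Pmvk, the phosphomevalonate kinase, at 1.33, and Cyp51, the lanosterol demethylase, at 1.20. At the 2-cell to 4-cell step the 16 split, with 4 higher and 4 lower and a median of 0.01, against 31.8% of all genes higher and 32.9% lower. Pmvk, Lss and Acat2 rose by 3.02, 2.70 and 2.31, and Nsdhl, Sc5d and Hsd17b7 fell by 4.15, 3.69 and 2.31. At the zygote to 2-cell step 5 rose and 3 fell, against 25.2% and 8.71% of all genes. From GV to MII 2 rose and 6 fell, against 9.11% and 25.3% of all genes. At this step Fdft1, the squalene synthase, which stood at 1230.3 CPM in GV oocytes, fell by 3.87. From MII to the zygote 2 rose and 2 fell, against 5.79% and 4.48% of all genes, and from the morula to the blastocyst 4 rose and 2 fell, against 18.8% and 7.97%. From the 4-cell to the 8-cell stage none was called by limma (4 at an unadjusted p under 0.05, 0 by edgeR). At GV to MII, MII to zygote and zygote to 2-cell, edgeR called 9, 5 and 9 of the 16. At 2-cell to 4-cell, 8-cell to morula and morula to blastocyst it called 8, 6 and 4.

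Of 11 sterol uptake, transport and efflux genes 9 were in the table. At the 2-cell to 4-cell step 3 of these rose and 4 fell, near the 31.8% higher and 32.9% lower over all genes. Npc2, which moves cholesterol out of the lysosome, rose by 2.51, while Scarb1, a receptor for high-density lipoprotein, fell by 2.04. At the 8-cell to morula step, where Stard4 rose, none of the 9 was called by limma (2 at an unadjusted p under 0.05, 0 by edgeR), and their median change was 0.29. Of the 9 sensing and SREBP processing genes 4 rose and 1 fell at the 2-cell to 4-cell step, against the same 31.8% and 32.9% of all genes, with Nr1h3 at 2.47 and Mbtps1, the first protease of SREBP cleavage, at 2.30, and Mbtps2, the second, at -2.43.

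The labels give gradient fractions by number alone. Here 6 to 10 count as the heavy side, where transcripts carrying several ribosomes usually sediment, and 1 to 5 count as the light side. Each fraction was scaled to its own library total, so a mean over fractions does not weigh them by their RNA. The heavy level of a gradient is the mean CPM of its 5 heavy fractions. Fraction libraries from the 2-cell to the 8-cell stage were sparse for genes in general. For genes at 10 to 100 CPM in transcriptomes, the median number of the 30 fraction libraries at 1 CPM or more was 13 in 2-cell embryos. It was 11 in 4-cell and 18 in 8-cell embryos, against 25 to 29 at the other stages.

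Of the early enzymes, Hmgcs1 held heavy means of 297, 197 and 179 CPM in the 3 2-cell gradients and 0.0561, 50.3 and 0 CPM in the 4-cell gradients, where nearly all of it was in gradient B. Idi1 went from 48.8, 61.7 and 32.6 CPM to 0, 0 and 0.0269 CPM. Mvd went from 0.582, 142 and 235 CPM to 0.767, 0.0699 and 0.258 CPM, so the groups overlapped through the first 2-cell gradient. Insig1 went from 40.8, 210.1 and 127 CPM to 0.0785, 0.0717 and 57.9 CPM, and Stard4 from 11.9, 30.1 and 55.2 CPM to 0.119, 0.0342 and 40.0 CPM. For both of these the last 4-cell gradient lay inside the 2-cell range.

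At this step 5 of the 8 genes fell on the heavy side and none rose, against 22.3% of all 14524 genes tested called lower and 15.6% higher. Hmgcs1 fell by 5.86 (SE 1.22, limma adjusted p 6.26e-04), Idi1 fell by 5.55 (SE 0.77, adjusted p 5.97e-06) and Mvd fell by 4.82 (SE 1.19, adjusted p 0.00277). Insig1 fell by 4.67 (SE 1.02, adjusted p 9.37e-04) and Stard4 fell by 2.97 (SE 1.00, adjusted p 0.0235). The median change of the 8 was -3.82, and that of all genes -0.06. In transcriptomes Mvd had no call at the same step, with a change of 0.20, and the difference between the 2 changes was not tested. With edgeR on recovered reads, or with only these stages in the fit, the count of called genes was 2. The Stard4 call was lost under 8 of 14 alternatives. Of all called genes on the heavy side, 41.2% were higher at this step and 51.7% after quantile normalization, and the same share went from 20.5% to 37.1% at GV to MII, from 24.5% to 50.8% at zygote to 2-cell and from 67.9% to 56.7% at 8-cell to morula. The 4-cell heavy means behind the 5 falls, those of Mvd and Stard4 among them, also enter the 4-cell to 8-cell step, which was known when the genes were chosen.

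From GV to MII 1 of 8 rose on the heavy side, against 0.833% of all genes higher and 3.22% lower. Srebf2 went from 80.5, 34.6 and 100.5 CPM to 242, 368 and 238 CPM, with no overlap, a rise of 2.06 (SE 0.55, limma adjusted p 0.0334). Its light side also stood higher in MII gradients, at 214, 225 and 154 CPM against 30.7, 36.6 and 48.2 CPM in GV gradients. Its transcriptome level fell at this step, to 11.2 ± 3.51 CPM (SD, n = 4). The heavy call was lost under 10 of 14 alternatives, among them 5 of the 6 that leave out 1 gradient, and its change ran from 1.61 to 2.46.

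None of the 8 was called on the heavy side by limma at the MII to zygote step (background 0.84% higher and 0.647% lower), the zygote to 2-cell step (5.1% and 15.7%), the 8-cell to morula step (5.42% and 2.56%) or the morula to blastocyst step (0.0551% and 0.0207%). At an unadjusted p under 0.05 the counts were 0, 0, 2 and 1, and by edgeR they were 0 at all 4 steps. From the 4-cell to the 8-cell stage, given without a test, the change was 6.12 for Mvd, 3.19 for Stard4, 2.95 for Insig1 and -2.53 for Srebf2, with a median of 1.28 for the 8 genes. Mvd held 192, 82.1 and 48.7 CPM in the 8-cell gradients. The percent called over all genes was 5.6% higher and 0.943% lower, and nothing is read from it.

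**Figure D3:**
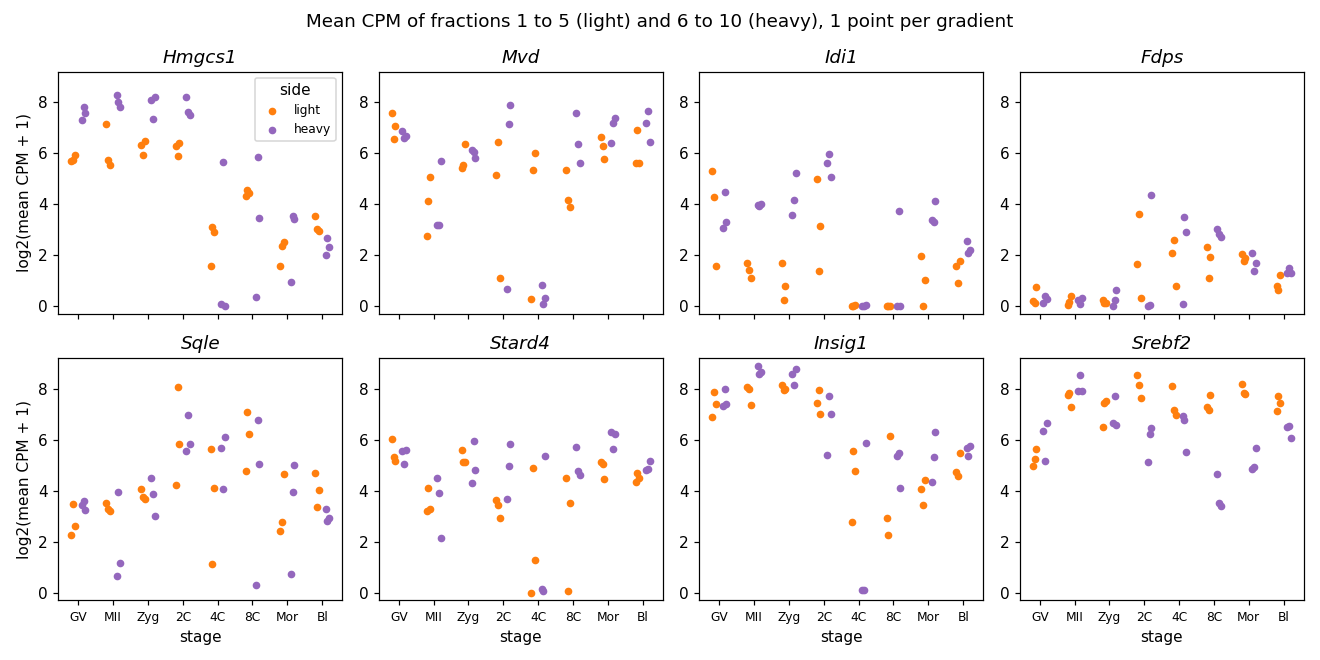
Mean CPM of light (fractions 1 to 5) and heavy (fractions 6 to 10) fractions for each gene by stage on a log2(mean CPM + 1) axis, 1 point per gradient (3 per stage). Srebf2 lies higher on the light side at each stage from the 2-cell stage to the blastocyst, and Idi1 is at or near 0 on both sides in 4-cell gradients.

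Within a stage, the heavy side was compared with the light side of the same 3 gradients. The main fit took the side means as separate samples and did not pair them by gradient, which was done as an alternative. Srebf2 stood apart on the light side. In 8-cell embryos its light means were 153, 142 and 216 CPM and its heavy means 24.2, 10.6 and 9.67 CPM, and in morulae they were 294, 225 and 220.2 CPM against 28.2, 29.2 and 49.5 CPM. In 2-cell embryos its light means were 373, 279 and 197 CPM against 34.4, 73.5 and 87.4 CPM. The sides did not overlap at any of these 3 stages.

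In the 8-cell gradients Srebf2 was lower on the heavy side by 3.53 (SE 0.45, limma adjusted p 4.86e-07), the only 1 of the 8 called, against 6.62% of all genes lower and 2.43% higher. These 8-cell heavy means also enter the 4-cell to 8-cell step, which was known when the genes were chosen. In morulae the difference was -2.79 (SE 0.45, adjusted p 2.94e-05), 1 of 8 called lower and 1 higher, against 4.17% lower and 1.64% higher. In 2-cell embryos it was -2.16 (SE 0.45, adjusted p 6.71e-04), again 1 lower and 1 higher, against 11.8% and 6.43%. By edgeR on reads summed over a side, which weighs fractions by depth, the differences were -1.65, -1.81 and -1.07 in the same order, with adjusted p 0.111, 0.142 and 0.242. Quantile normalization moved the median over all genes by 0.21 in 2-cell and 0.30 in 4-cell gradients, where the share of called genes higher on the heavy side went from 35.4% to 49.2% and from 20.9% to 49.3%.

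Much of this came from fraction 1. Srebf2 stood there at 619, 485 and 609 CPM in 8-cell embryos, from 199, 228 and 131 reads, and this was between 53.9% and 69.8% of its summed CPM. Without fraction 1 on the light side, an alternative chosen after seeing the data, the difference was -2.12 (adjusted p 0.00788) in 8-cell embryos, -1.87 (adjusted p 0.0274) in morulae and -1.04 (adjusted p 0.168) in 2-cell embryos. The part of the low depth of fraction 1 libraries in these values was not tested.

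The mean fraction number, weighted by CPM, places a gene along the gradient. Srebf2 averaged 6.22 ± 0.488 (SD, n = 3 gradients) in GV oocytes and 3.12 ± 1.11 at the 2-cell stage. In 4-cell embryos it averaged 4.05 ± 0.491, where 29.1% of 6926 genes had a lower mean fraction. It averaged 2.08 ± 0.0627 in 8-cell embryos, where 4.79% of 8482 genes had a lower mean fraction, and 2.67 ± 0.359 in morulae, where 4.36% of 9639 genes did. In blastocysts it averaged 4.41, where 18.7% of 10205 genes had a lower mean fraction and the median gene was at 5.43. Its light means of 137, 209 and 172 CPM lay above its heavy means of 89.6, 92.9 and 65.9 CPM in the blastocyst gradients, with no overlap and no call.

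**Figure D4:**
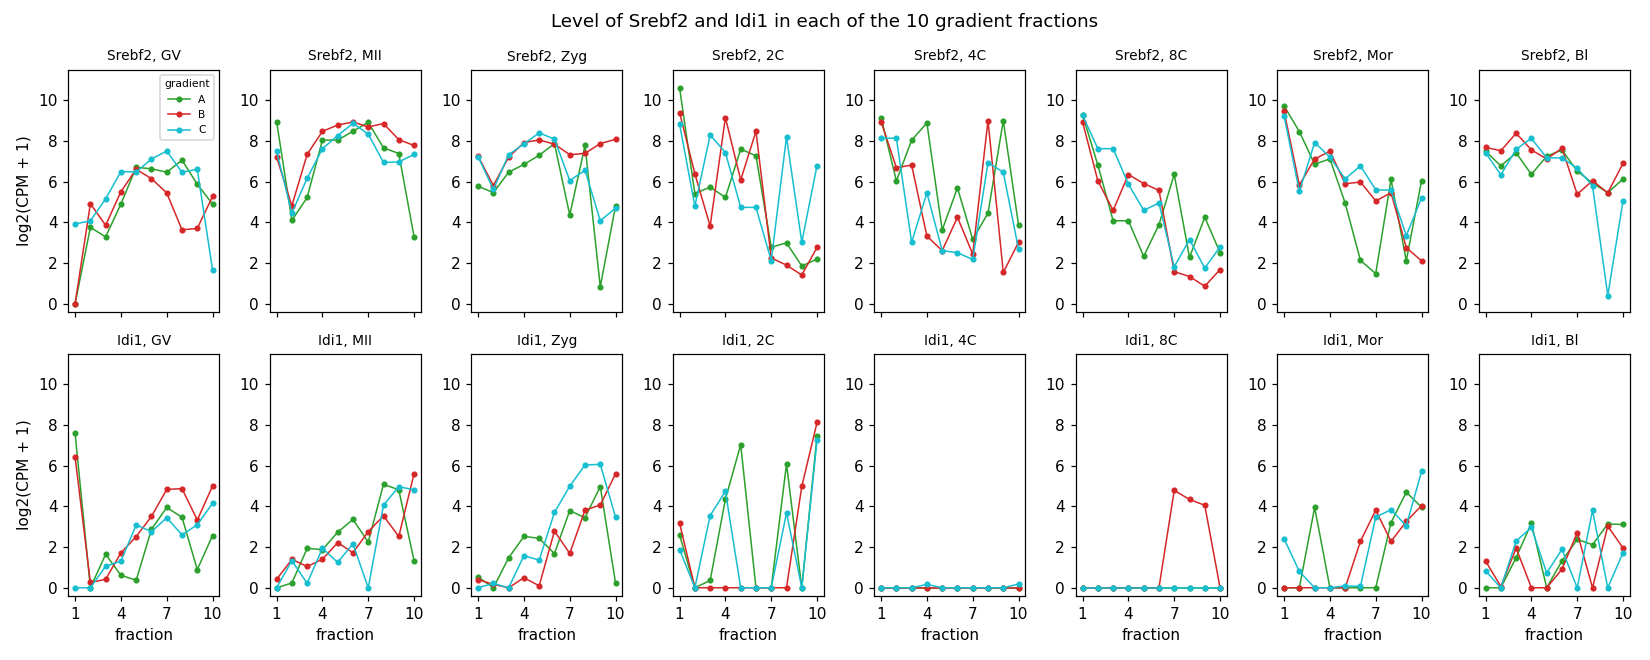
Level of Srebf2 (top) and Idi1 (bottom) in each of the 10 fractions on a log2(CPM + 1) axis, 1 panel per stage and 1 line per gradient. In 8-cell embryos and morulae Srebf2 is highest in fraction 1, while Idi1 is mostly in the later fractions from MII to the 2-cell stage and is almost without reads in 4-cell gradients.

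Idi1 lay at the other end. Its mean fraction was 8.31 ± 0.617 in MII oocytes, 8.24 in zygotes, 8.64 in 2-cell embryos and 8.29 in morulae (n = 3 gradients each), and between 98.9% and 99.4% of genes had a lower one at these 4 stages. In GV oocytes it was 4.94, and 14.8% of genes had a lower one, with fraction 1 of gradients A and B at 191 and 84.3 CPM from 2 reads each. In zygotes its heavy means of 11.1, 16.9 and 36.7 CPM lay above its light means of 2.27, 0.184 and 0.741 CPM. This was a difference of 3.42 (SE 0.80, limma adjusted p 0.00933), the only call among the 8 genes, against 2.14% of all genes higher and 0.87% lower. It was also higher on the heavy side in 2-cell embryos, by 2.39 (SE 0.80, adjusted p 0.0314), and in morulae, by 2.62 (SE 0.80, adjusted p 0.0395).

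These Idi1 differences rest on few fractions. In 2-cell gradients fraction 10 held 177, 278 and 151 CPM while 16 of the 30 libraries held none, and with the median over fractions in place of the mean the difference was -1.49 (adjusted p 0.143). The morula call was lost when heavy and light sides were paired by gradient, at adjusted p 0.0529. By edgeR the adjusted p was 0.477 in zygotes, 0.553 in 2-cell embryos and 0.380 in morulae.

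Idi1 was almost absent from the gradients of 4-cell embryos. Of 30 fraction libraries 28 held 0 reads of it, and the highest held 0.135 CPM, whereas the 4 transcriptome libraries held between 15.6 and 34.1 CPM. In 8-cell embryos 27 of 30 libraries held 0 reads, and the other 3, fractions 7 to 9 of gradient B, held 26.6, 19.3 and 15.6 CPM. At every other stage too, both side means of Idi1 lay below its transcriptome mean. In MII oocytes the heavy mean was 14.8 CPM and the light mean 1.70 CPM, against 161 CPM in transcriptomes. In zygotes they were 21.6 and 1.06 CPM, against 194 CPM. Of 4732 genes at 10 to 100 CPM in 4-cell transcriptomes, 56 (1.18%) reached 1 CPM in no fraction library, and Idi1 was 1 of these. The median of the 4732 genes reached 1 CPM in 11 of the 30 fraction libraries, so zeros were common at this stage.

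At some stages Mvd and Srebf2 stood far higher in fractions than in transcriptomes, and at others on the heavy side they did not. Mvd had a heavy mean of 105 ± 10.5 CPM (SD, n = 3) and a light mean of 140.2 ± 49.1 CPM in GV gradients, where transcriptomes held 10.7 ± 0.988 CPM (SD, n = 4). Srebf2 in MII oocytes held 283 ± 74.1 CPM on the heavy side and 11.2 ± 3.51 CPM in transcriptomes. At the 4-cell stage, in contrast, the heavy means of Mvd given above were all under 1 CPM, where transcriptomes held 8.68 ± 3.12 CPM. The 8-cell heavy means of Srebf2, 24.2, 10.6 and 9.67 CPM, lay near or below the transcriptome level of 32.2 ± 12.1 CPM. Such differences were not particular to Mvd and Srebf2. In 8-cell embryos Insig1 and Fdps had heavy means of 33.3 and 6.31 CPM, against 3.47 and 0.319 CPM in transcriptomes, while Idi1 stood lower in gradients. The 2 kinds of library were made from different inputs, and these values are given side by side without a test.

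At the 4-cell stage Mvd was the only 1 of the 8 called between the sides, lower on the heavy side by 3.46 (SE 1.23, limma adjusted p 0.0472), against 12.9% of all genes lower and 3.4% higher. Its light means were 0.208, 39.6 and 63.0 CPM, so gradient A held almost none on either side. Paired by gradient the adjusted p was 0.0597, and the call was lost under 8 of 11 alternatives. The 4-cell heavy means of Mvd also enter the 4-cell to 8-cell step, which was known when the genes were chosen. In GV oocytes, MII oocytes and blastocysts none of the 8 was called by limma (background 0.0461%, 1.71% and 0.633% higher and 0.0264%, 1.52% and 2.11% lower), with 0, 1 and 1 at an unadjusted p under 0.05 and 0 by edgeR.

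The remaining genes had no called side. Hmgcs1 averaged fraction 7.22 ± 0.147 in GV oocytes (SD, n = 3), with heavy means of 159.7, 223 and 190.0 CPM above light means of 51.4, 52.2 and 60.0 CPM, and 4.18 in blastocysts, with heavy means of 3.07, 5.40 and 3.96 CPM below light means of 10.6, 7.21 and 6.81 CPM. At both stages the sides did not overlap. Sqle in 8-cell gradients spread from 0.217 to 108 CPM on the heavy side and from 26.5 to 136 CPM on the light side. Insig1 in MII gradients held 472, 381 and 399 CPM on the heavy side against 271, 254 and 164 CPM on the light side, with no overlap.

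As a description, other genes were ranked by the Pearson correlation of their 8 transcriptome stage means, on the log2 scale, with those of Stard4 and of Srebf2, over 10762 genes that reached a mean of 10 CPM at 1 stage or more. Nearest to Stard4 were Vps33b at 0.892, Morrbid at 0.765 and Abitram at 0.756. Nearest to Srebf2 were Agtrap at 0.984, Got1 at 0.970 and Chic2 at 0.968. For the mean profile of the 8 genes they were Zfp934 at 0.900, Lrrc75a at 0.884, Lypla1 at 0.883, Ywhae at 0.862 and Adarb1 at 0.854. These genes were picked for their r among many, with 8 points each.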

How the data were processed

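Transcriptome libraries (polyA RNA, Smart-seq2, pools of 20) and gradient fraction libraries (about 100 oocytes or embryos, 10 fractions) were sequenced as paired ends, per the labels' protocols. The submitters' processing notes name Trim Galore 0.6.7, FastQC, HISAT2 2.2.1, featureCounts 2.0.1, edgeR and genome build GRCm39; the annotation version is not given in the sources used here. The authors deposited 1 table of CPM per gene symbol and library. In 9 columns repeated symbols push the sum past what a CPM column can reach, so these deposited values were recorded as a signal and used as CPM. Of 15854 symbols, 159 in 76 groups had identical values, 1 per group was kept, and 15771 remained. No column of sample values was left unmapped (0). Whole reads were recovered from the CPM steps in 271 of 272 libraries, where 100% of values were whole within 0.05 reads; fraction 7 of 2-cell gradient B was left out of read sums. Reads carry no molecular identifiers, so a count of 0, which allows up to 3 reads, covers counting error only.

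The members and gene lists were chosen with earlier results of these data known. All 8 members are named, and from other lists at most the 3 genes per direction with the largest called change; the single values of some listed genes are not reported here. limma 3.58.1 (moderated test with a mean-variance trend, R 4.3.3) was run on log2(CPM + 1), or on log2(mean CPM of a side + 1), for genes at 1 CPM or more in at least the number of samples in the smallest group, with 1 fit per family over all stages and Benjamini-Hochberg adjustment over all genes. On simulated data it called nearly all changed genes in the transcriptome design and few in the gradient design. A missing call on the heavy side is not read as a lack of change. The simulation placed large changes at the MII to zygote step, only in genes above a set level. Mvd, Fdps, Sqle, Stard4 and Srebf2 lay below that level in MII transcriptomes. Its gradient design used reads summed over heavy fractions, not their mean CPM. How often changes of these genes would be called was not tested. edgeR 4.0.16 on recovered reads, other pseudocounts, filters, quantile normalization, other fraction sets, each replicate left out and the replicate block were alternatives. Heavy and light means of a gradient share a lysate and are paired by design (correlation of their deviations from 0.00776 to 0.253 over 24 gradients). The main fit did not use this pairing, and the block by gradient was an alternative. The letters of transcriptomes and of gradients did not pair stages: deviations correlated from -0.178 to 0.169 over 20 transcriptome pairs and from -0.0606 to 0.0912 over 21 gradient pairs. The 4 columns of 2-cell transcriptomes bear the letters E to H, which no label has, so they carry no pairing. Near-identical copies of members were searched in GENCODE M21 transcripts (GRCm38), and promoter sequences are from RefSeq (GRCm38.p6).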

Additional observations from a re-analysis of the deposited data

Results flagged for a closer look

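Of 64 groups of 4 transcriptome libraries (8 genes at 8 stages) 6 had a library far from the other 3; chance gives about 1 in 20 groups. For Fdps, in 2 of these, the other 3 libraries held 0 reads, so that any read sets a library apart and these groups are not to be read against that rate. Stard4 stood at 34.4 CPM in zygote library C, where the others held 19.7 to 21.5 CPM, and at 43.5 CPM in 2-cell library G, where the others held 30.9 to 31.7 CPM. Insig1 was low in GV library B, at 119 CPM against 134 to 136 CPM, and Srebf2 was low in GV library C, at 19.2 CPM against 23.9 to 24.7 CPM. Fdps stood at 0.106 CPM in MII library D and at 0.222 CPM in zygote library D, which are a few reads each.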

How the results depend on the processing

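Of 31 calls of a member at a step or between sides, 17 kept direction and call under every alternative run for them, 16 of 18 in transcriptomes and 1 of 13 in gradients (Mvd, heavy side, 2-cell to 4-cell). With only these groups in the fit that gene did not pass the filter on low values and so had no call, which is not counted among its 13 alternatives. The 4-cell heavy means behind this Mvd call also enter the 4-cell to 8-cell step known when the genes were chosen. The 2 transcriptome exceptions were Mvd from the 8-cell stage to the morula and Srebf2 from GV to MII. No count of called members in transcriptomes moved by over 1.5 times outside the leave-outs. On the heavy side the count from GV to MII went from 1 to 0 with a pseudocount of 0.1, edgeR, the replicate block, fractions 7 to 10 or the median over fractions, and to 4 with only these groups in the fit. It went from 0 to 4 with the median at the zygote to 2-cell step, from 5 to 2 with edgeR or only these groups and to 3 with the median at the 2-cell to 4-cell step, and from 0 to 1 with the pseudocount, quantile normalization or the median at the 8-cell to morula step. Between sides, only the groups compared gave 1 in GV, 2 in MII, 2 in zygotes, 0 in 2-cell, 0 in 4-cell and 1 in blastocyst gradients, against 0, 0, 1, 2, 1 and 0. The median over fractions gave 1 in GV, 3 in 8-cell and 1 in blastocyst gradients, and turned Idi1 in 2-cell gradients to -1.49. Quantile normalization gave 1 in MII, 1 in 2-cell and 0 in 4-cell gradients. edgeR gave 0 in zygote, 0 in 2-cell, 3 in 4-cell and 0 in morula gradients, the pseudocount 1 in 2-cell and 2 in 4-cell, no filter 0 in 4-cell, and fractions 7 to 10 against 1 to 4 gave 1 in MII, 0 in 4-cell and 2 in 8-cell gradients. The replicate block by gradient gave 0 in 4-cell and 1 in morula gradients and changed no other count between sides by over 1.5 times. Light fractions 2 to 5, chosen after seeing the data, gave 1 in 2-cell and 1 in morula gradients. The cause of these shifts was not tested. Leaving out 1 replicate gave 4 to 5 calls in transcriptomes from GV to MII, 2 to 4 from the 8-cell stage to the morula and 3 to 4 from the morula to the blastocyst, and the main counts of 1, 2 and 4 at the other tested steps. On the heavy side it gave 0 to 1 from GV to MII, 4 to 5 from 2-cell to 4-cell and 0 to 1 from 8-cell to morula. Between sides it gave 0 to 1 in zygotes, 1 to 3 in 2-cell, 0 to 1 in 4-cell, 1 in 8-cell and 1 in morula gradients. The median change of the 8 genes from 4-cell to 8-cell ran from -0.25 to -0.01 in transcriptomes and from 0.36 to 2.30 on the heavy side. Levels of a few reads, as for Fdps in oocytes and for fraction 1, are limited by depth.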

Other observations

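Fatty acid synthesis genes, many of which SREBP1 controls, were listed as a group, of which 4 were called higher at each of the steps into and out of the 2-cell stage. Of 9 listed genes 8 were in the table. At the zygote to 2-cell step 4 of the 8 rose and none fell, against 25.2% of all genes higher and 8.71% lower, with Scd1, a desaturase, at 4.44, Elovl6, an elongase, at 3.76 and Scd2 at 2.30 on the log2(CPM + 1) scale (limma). Scd1 stood at 21.2 ± 6.16 CPM in 2-cell embryos (SD, n = 4) and at 0 in all 4 zygote libraries. At the 2-cell to 4-cell step 4 of 8 rose and none fell, against 31.8% of all genes higher and 32.9% lower, with Elovl6 at 3.75, Acaca, the acetyl-CoA carboxylase, at 2.11 and Acss2 at 1.75, with a median change of 1.32 against 0.02 for all genes. In blastocysts Srebf1, which encodes SREBP1, stood at 43.2 ± 8.12 CPM after 9.06 ± 3.71 CPM in morulae, a rise of 2.18 (SE 0.30, limma adjusted p 1.60e-07), and Scd2 rose by 2.54. The step shares its morula libraries with the step before.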
